A study of Homo sapiens with 6 samples.

Results

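The miR-200 family and miR-205 are the miRNAs most closely tied to the epithelial state, and their reads were followed here in MDA-MB-231 cells, a triple-negative human breast adenocarcinoma cell line, grown as spheroid cells or as parental cells. All listed mature sequences from the stem-loops mir-200b, mir-200a, mir-429, mir-200c, mir-141 and mir-205 were taken, from either arm. This gave 6 of the 437 mature sequences listed, with 6 in the spheroid table and 5 in the parental table. No second arm of any of these stem-loops was listed. The spheroid cells (3D) had been kept in suspension without serum and the parental cells (2D) as an attached monolayer in tissue culture flasks, and both are the same cell line, with no other treatment named in the labels. Small RNA of 3 samples of each condition was sequenced from TruSeq small RNA libraries, but the deposited values are 1 table of reads per condition. The labels point every sample of a condition to its 1 table and do not state which samples it covers, so there is no replicate error and no difference has a replicate check. In the sample sheet of the study the tables stand beside the first sample of each condition alone, so each may hold a single library. The study's library summary also gives a single index sequence per condition. Its counts of the most abundant miRNA, miR-21 in parental and miR-10a in spheroid cells, equal those in the tables. There were 1553014 reads in the spheroid table and 539798 in that of the parental cells, a ratio of 2.88. The library summary instead lists more reads mapped to miRBase for parental than for spheroid cells, and a larger unannotated share in spheroid cells. Why the orders differ was not tested, and all depths given here are those of the tables. In reads per 1000000 of the table total (rpm), 1 read was worth 0.644 rpm in the spheroid and 1.85 rpm in the parental table.

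The miR-200 family is made from a pair of primary transcripts, with miR-200b, miR-200a and miR-429 on the one and miR-200c and miR-141 on the other. Its members keep epithelial cells epithelial by repressing the transcription factors ZEB1 and ZEB2, which in turn repress the miR-200 transcripts and E-cadherin. Luminal breast epithelium is rich in the family, and cells with mesenchymal features, among which MDA-MB-231 is counted, are poor in it. miR-205 also represses ZEB1 and ZEB2, and in the mammary gland it is typical of basal and stem-like epithelial cells. A miRNA chooses its targets mainly through the seed, bases 2 to 8 from its 5′ end.

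The 6 mature sequences, shown because the seed sets which of them can be read as 1 group of regulators, are given 5′ to 3′ from RefSeq (GRCh38.p14) with the seed in capitals. All 6 equal the sequences listed in the tables, with U for T.
miR-200b-3p: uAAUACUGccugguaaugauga
miR-200c-3p: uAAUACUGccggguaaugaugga
miR-429: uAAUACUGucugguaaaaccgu
miR-200a-3p: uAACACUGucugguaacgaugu
miR-141-3p: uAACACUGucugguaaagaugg
miR-205-5p: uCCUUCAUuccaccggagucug
miR-200b-3p, miR-200c-3p and miR-429 share the seed AAUACUG, and miR-200a-3p and miR-141-3p share the seed AACACUG. No other listed sequence carried either seed, nor the seed CCUUCAU of miR-205-5p. Counting positions from 1 at the 5′ end, with the base of the sequence named first given first, the seeds of miR-200b-3p and miR-200a-3p differ by U4C. Within a seed group, miR-200b-3p and miR-200c-3p differ by U11G and A22G over 22 compared bases, and miR-200a-3p and miR-141-3p by C17A and U22G. miR-200b-3p and miR-429 differ at 6 of 22 bases.

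Each sequence had 1 exact match in GRCh37. On the plus strand of chromosome 1, miR-200b-3p lies at chr1:1102540-1102561, miR-200a-3p at chr1:1103296-1103317 and miR-429 at chr1:1104435-1104456, each inside its annotated hairpin. No other gene of GENCODE release 44 (mapped to GRCh37) overlaps them, and the starts of miR-200b-3p and miR-429 are 1895 bases apart. On the plus strand of chromosome 12, miR-200c-3p lies at chr12:7072905-7072927 and miR-141-3p at chr12:7073318-7073339, both in an intron of the lncRNA gene MIR200CHG and 413 bases apart at their starts. miR-205-5p lies at chr1:209605511-209605532 (plus strand), in an intron of the lncRNA gene MIR205HG. The RefSeq hairpins of the most abundant member and of miR-205 are given with the listed mature sequence in capitals, to show which arm was found and which bases flank it.
MIR200B: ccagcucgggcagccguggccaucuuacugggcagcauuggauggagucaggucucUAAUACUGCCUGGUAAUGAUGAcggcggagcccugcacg
MIR205: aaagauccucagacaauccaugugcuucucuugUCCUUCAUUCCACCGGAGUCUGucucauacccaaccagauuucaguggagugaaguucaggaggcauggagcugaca
The listed arm of MIR200B is bases 57 to 78 of 95, on the 3′ side, and that of MIR205 is bases 34 to 55 of 110, on the 5′ side.

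The family was scarce in both tables, and most of its reads were miR-200b-3p. The 6 sequences together had 177 reads in the spheroid table, which is 0.0114% of its reads, and 39 reads in the parental table, which is 0.00722%. miR-200b-3p supplied 152 of the 177 spheroid reads and 31 of the 39 parental reads. The other 5 sequences together held 14.1% (interval 9.35% to 20.1%) of the spheroid reads and 20.5% (9.30% to 36.5%) of the parental reads of the 6. All intervals are exact binomial (Clopper-Pearson) 95% intervals. They cover counting error only, and reads of PCR products without molecular identifiers are not independent molecules.

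**Figure D1:**
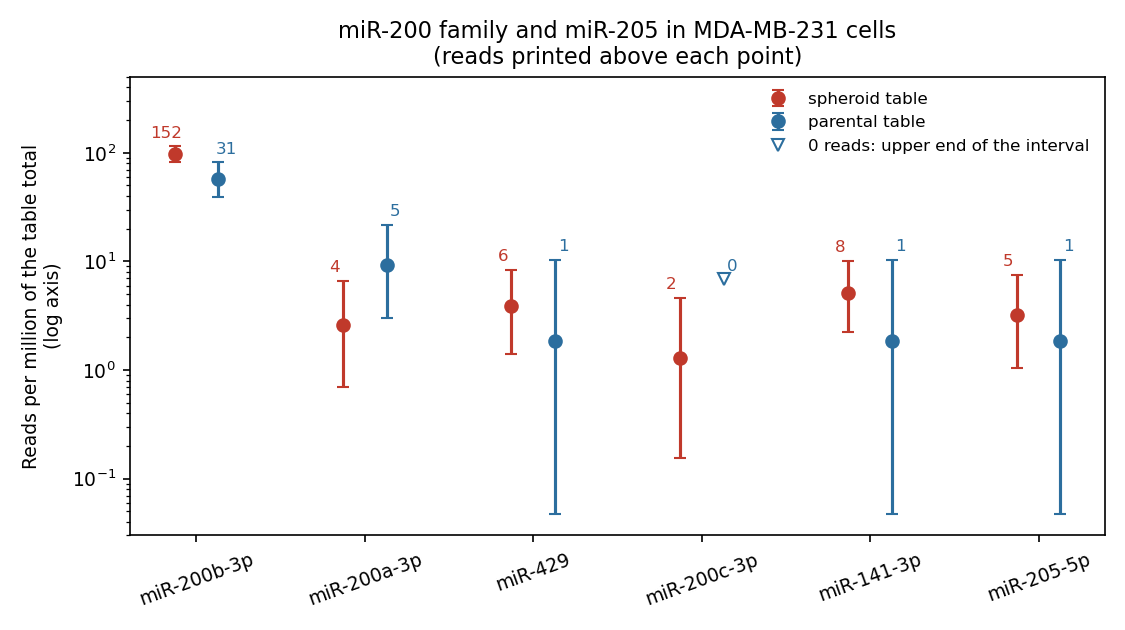
Reads per 1000000 of the table total (log axis) for the 6 sequences, with spheroid on the left and parental on the right of each pair, bars giving the 95% interval and the printed numbers giving reads. miR-200b-3p (152 spheroid and 31 parental reads) stands above the other 5, which had 8 reads or fewer in either table, and the open triangle is the upper end of the interval for 0 reads.

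miR-200b-3p had 97.9 rpm (interval 82.9 to 115) in the spheroid table and 57.4 rpm (39.0 to 81.5) in the parental table. Of 436 sequences, counting those read in only 1 of the tables, it ranked 148 in the spheroid table and 178 in the parental table, so that 66.1% and 58.9% of these sequences, in the same order, had fewer reads or none. The fold, spheroid over parental, was 1.70 with an interval of 1.15 to 2.60. By Kal's Z-test, which compares the reads of the 2 tables and not the cultures, the adjusted p (Benjamini-Hochberg over 436 sequences) was 0.0179, and by Fisher's exact test (two-sided) it was 0.0152. Over its alternatives in processing the adjusted p ran from 0.00181 to 1.0, the highest where variation between cultures was assumed. The difference was thus past counting error but under the fold of 2 that a call also required, and 179 spheroid reads would have been needed at 31 parental reads. An adjusted p under 0.05 at any fold was reached by 37.8% of the 436 sequences.

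The companions of miR-200b on its transcript were at the edge of detection, and their folds pointed in different directions without passing the test. miR-200a-3p, which differs from miR-200b-3p within the seed, had 4 reads (2.58 rpm, interval 0.702 to 6.59) in the spheroid table and 5 reads (9.26 rpm, 3.01 to 21.6) in the parental table. Its fold was 0.278 (interval 0.0552 to 1.29), with an adjusted p of 0.0999 by Kal's Z-test and 0.136 by Fisher's exact test. It was not called, since at 5 parental reads a call in this direction needed 2 spheroid reads or fewer, and 4 were counted. miR-429, with the seed of miR-200b-3p, had 6 spheroid reads (3.86 rpm, interval 1.42 to 8.41) and 1 parental read (1.85 rpm, 0.0469 to 10.3). Its fold of 2.09 had an interval of 0.253 to 95.9 and left the direction undetermined (adjusted p 0.661 by Kal's Z-test). The intervals of miR-200b-3p lay above those of miR-200a-3p and miR-429 in both tables.

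The chromosome 12 pair was also near the limit of detection. miR-141-3p, which shares its seed with miR-200a-3p, had 8 reads (5.15 rpm, interval 2.22 to 10.2) in the spheroid table and 1 read (1.85 rpm) in the parental table. The fold was 2.78 with an interval of 0.373 to 123 (adjusted p 0.525 by Kal's Z-test). miR-200c-3p, often the most abundant family member in epithelial cells, had 2 reads (1.29 rpm, interval 0.156 to 4.65) in the spheroid table and 0 in the parental table. The interval of 0 parental reads ends at 6.83 rpm. No fold is given, since neither table had more than 3 reads, which are worth 1.93 rpm at the spheroid and 5.56 rpm at the parental depth. miR-200c-3p was therefore not detected in the parental table at this depth and could not be told from an equal level.

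miR-205-5p had 5 reads (3.22 rpm, interval 1.05 to 7.51) in the spheroid table and 1 read (1.85 rpm, 0.0469 to 10.3) in the parental table. At equal levels, 1 parental read corresponds to 2.88 spheroid reads. The fold was 1.74 (interval 0.194 to 82.2), and neither Kal's Z-test (adjusted p 0.710) nor Fisher's exact test (adjusted p 1.0) found a difference. At 1 parental read, as for miR-205-5p, miR-429 and miR-141-3p, 23 spheroid reads, a fold of 7.99, were needed for a call. In the parental table these 3 were among 40 sequences with 1 read. The study itself lists mir-205 as higher in spheroid cells by Kal's Z-test, at a fold above the 1.74 found here. It also reports that qRT-PCR resembled its sequencing result for the miRNAs assayed, miR-205-5p among them. With 5 reads and 1 read, the values here are too few to weigh either result.

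**Figure D2:**
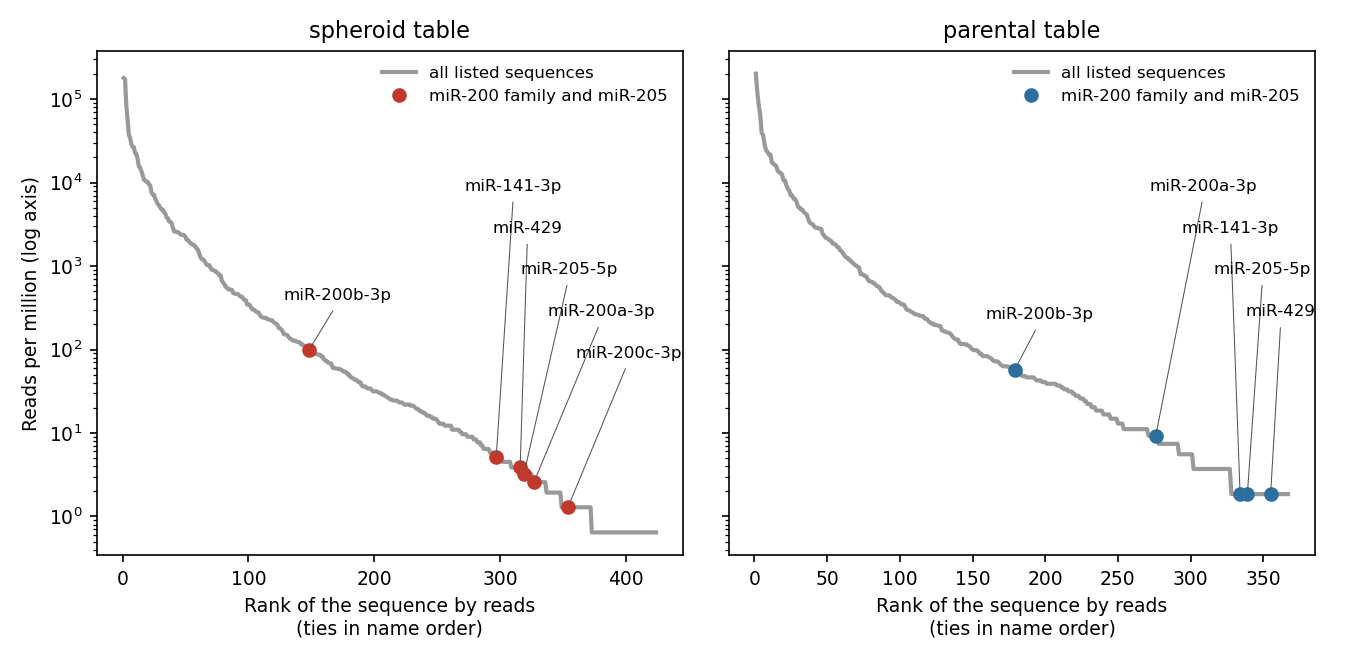
Reads per 1000000 (log axis) of every sequence with a read, ordered by rank, in the spheroid table (left) and the parental table (right), with the miR-200 family and miR-205 as filled points. miR-200b-3p sits in the middle of the curve (rank 148 of spheroid and 178 of parental sequences), and the others lie in its tail.

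The order of levels in the spheroid table was miR-200b-3p, miR-141-3p, miR-429, miR-205-5p, miR-200a-3p and miR-200c-3p, and the intervals of the last 5 all overlapped. In the parental table miR-200a-3p came after miR-200b-3p, followed by the 3 sequences at 1 read and by miR-200c-3p at 0, and below miR-200b-3p the intervals again overlapped. Apart from miR-200b-3p, the order within the family could not be resolved in either table.

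Of the 6 sequences, none was called higher and none lower, where a call took an adjusted p under 0.05 by Kal's Z-test and a fold over 2. With 0 or 1 parental reads no spheroid count could give a lower call. Only miR-200b-3p and miR-200a-3p could therefore have been called lower. Among all 436 sequences, 13.8% were called, 4.82% higher and 8.94% lower. These were 21 higher and 39 lower, against 28 higher and 30 lower with the TMM scaling of edgeR and 29 higher and 28 lower with the size factors of DESeq2, and none of the 6 was called under either scaling. By Fisher's exact test with the same thresholds none of the 6 was called either, against 4.82% of all sequences higher and 8.72% lower (13.5% in all), and by Kal's Z-test 2 of the 6, miR-200b-3p and miR-200a-3p, had an unadjusted p under 0.05 (0.00619 and 0.0413), as did 41.5% of all sequences. A ratio could be formed for 5 of the 6. It was above 1 for 4 and below 1 for miR-200a-3p, with a median fold of 1.74, beside 134 above and 193 below 1 and a median of 0.900 among the 327 sequences with a ratio. At 1 parental read a ratio was formed only with more than 3 spheroid reads, where it is always above 1. The side of miR-429, miR-141-3p and miR-205-5p was thus fixed by the floor, so the split and the median are no result about the members. Only the interval of miR-200b-3p left out 1.

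**Figure D3:**
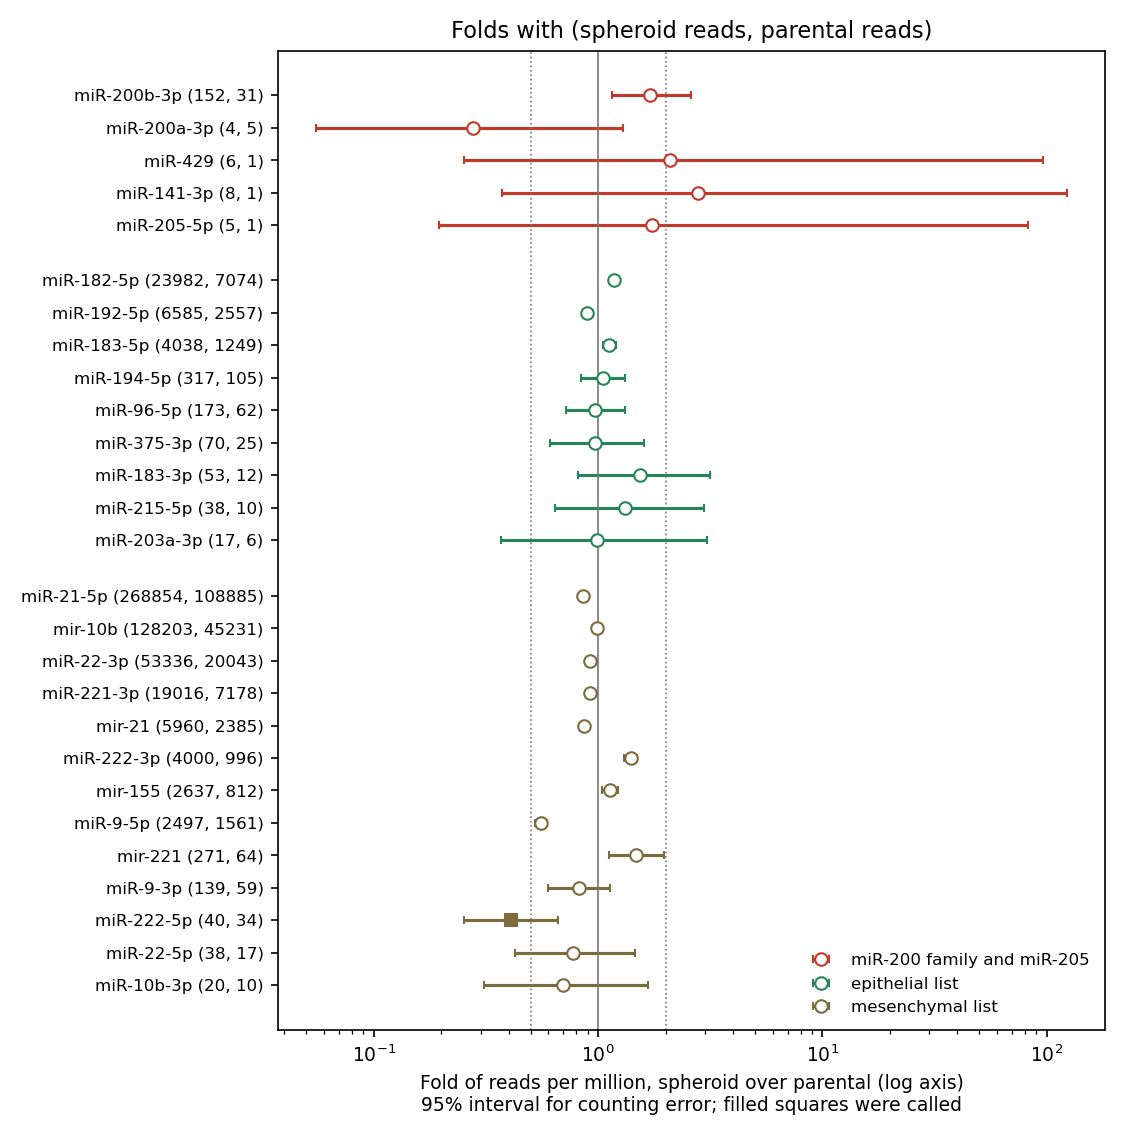
Fold of reads per 1000000, spheroid over parental (log axis), with 95% intervals for counting error, for the miR-200 family and miR-205 (top), the list of other epithelial miRNAs (middle) and the list of mesenchymal miRNAs (bottom); spheroid and then parental reads stand in parentheses, and dotted lines mark folds of 0.5 and 2. Of those shown only miR-222-5p was called (filled square), the intervals of miR-429, miR-141-3p and miR-205-5p span both dotted lines, and names without an arm are stem-loops.

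Summed by transcript, the miR-200b, miR-200a and miR-429 cluster had 162 spheroid reads (104 rpm) and 37 parental reads (68.5 rpm), a fold of 1.52 (interval 1.06 to 2.24). The miR-200c and miR-141 cluster had 10 spheroid reads (6.44 rpm) and 1 parental read (1.85 rpm), a fold of 3.48 (0.494 to 151). Summed by seed, the AAUACUG group had 160 spheroid and 32 parental reads, a fold of 1.74 (1.18 to 2.63), and the AACACUG group had 12 spheroid and 6 parental reads, a fold of 0.695 (0.241 to 2.26). The AAUACUG group held 90.4% (interval 85.1% to 94.3%) of the reads of the 6 in the spheroid table and 82.1% (66.5% to 92.5%) in the parental table. The cluster and the seed group that hold miR-200b-3p took most of their reads from it. The 6 together gave a fold of 1.58 (1.11 to 2.29), and without miR-200b-3p the 25 spheroid and 8 parental reads gave 1.09 (0.475 to 2.79).

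The dominant member had no read of its annotated form. None of the 152 spheroid and 31 parental reads of miR-200b-3p equalled the listed 22-base sequence, so that every read was a variant in length or sequence. For a count of 0 the interval of the exact share ends at 2.40% in the spheroid and 11.2% in the parental table, whereas exact reads were 32.7% of all spheroid and 34.9% of all parental reads. miR-200b-3p was 1 of 11 sequences without an exact read among the 166 with at least 100 spheroid reads, a group that also held miR-1468-5p with 15903 spheroid reads. Among sequences with 20 to 500 reads, 29 of 154 had no exact read in the spheroid table and 25 of 138 in the parental table. The tables do not give the variants themselves.

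Among the members, exact reads were found only for miR-200a-3p, miR-200c-3p and miR-205-5p. miR-200a-3p had 1 exact read of 4 in the spheroid table and 2 of 5 in the parental table. Both spheroid reads of miR-200c-3p were exact. The single parental read of miR-205-5p was exact, and none of its 5 spheroid reads was. miR-429, with 6 spheroid reads and 1 parental read, and miR-141-3p, with 8 and 1, had no exact read. Counted by exact reads alone, the 6 sequences had 3 reads in the spheroid and 3 in the parental table. Every read of the 6 was counted as unique to its sequence in both tables, although the members differ at few bases, whereas 84.1% of all spheroid and 84.0% of all parental reads were. Reads with mismatches can be split between near-identical members, so the division between miR-200b-3p and miR-200c-3p, or miR-200a-3p and miR-141-3p, is uncertain.

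**Figure D4:**
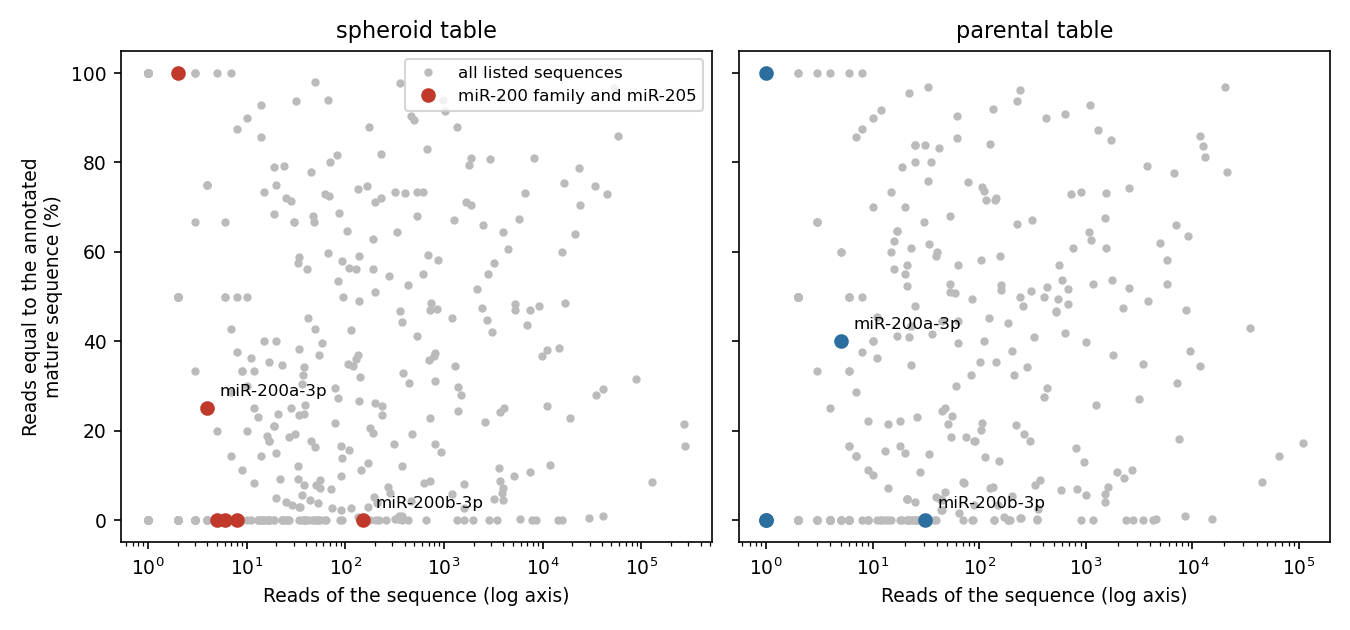
Percentage of a sequence's reads that equal the annotated mature sequence against its reads (log axis), in the spheroid table (left) and the parental table (right), with the miR-200 family and miR-205 as large points. miR-200b-3p lies at 0% with 152 spheroid and 31 parental reads.

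Other miRNAs that epithelial cells express had more reads in sum, most of them from a few sequences. A list of miR-203, miR-375, the miR-183, miR-96 and miR-182 cluster, miR-192, miR-194 and miR-215 gave 13 measured sequences with 22717 rpm in the spheroid and 20569 rpm in the parental table, against 114 rpm and 72.2 rpm for the 6 members. miR-182-5p alone, of the sensory organ and epithelial miR-183 cluster, had 23982 spheroid reads and 7074 parental reads, a fold of 1.18 (interval 1.15 to 1.21). miR-192-5p, which p53 can induce, had 6585 spheroid and 2557 parental reads (fold 0.895), and miR-183-5p had 4038 and 1249 (fold 1.12). miR-194-5p had 317 spheroid and 105 parental reads, and miR-96-5p had 173 and 62. The 152 spheroid and 31 parental reads of miR-200b-3p lay below those of these 5 and above those of the other 8. The highest of the 8 were miR-375-3p with 70 spheroid and 25 parental reads and miR-183-3p with 53 and 12, both named after their values were seen, and 4 of the 8 had 4 reads or fewer in either table. None of the 13 was called in either direction, and their median fold was 1.05 over the 9 with a ratio.

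The list of miRNAs linked to mesenchymal cells and to the epithelial-mesenchymal transition, namely miR-10b, miR-21, miR-22, miR-155, miR-221, miR-222 and miR-9, took 31.2% of the spheroid reads and 34.7% of the parental reads. Of its 14 sequences none was called higher and 1 lower, the scarce miR-222-5p with 40 spheroid and 34 parental reads (fold 0.409, interval 0.252 to 0.666, adjusted p 0.000281 by Kal's Z-test). The median fold was 0.869 over the 13 with a ratio. miR-221-3p, a miRNA of basal breast cancer cells, had 19016 spheroid and 7178 parental reads (fold 0.921). miR-22-3p, which can silence miR-200 genes by repressing TET demethylases, had 53336 and 20043 reads (fold 0.925). The other arm of mir-222, miR-222-3p, was far more abundant than miR-222-5p, with 4000 spheroid and 996 parental reads. It had a fold above 1 (1.40, interval 1.30 to 1.50, adjusted p 2.4e-20 by Kal's Z-test), under the fold of 2. Folds above 1 were also found for the main sequence of mir-155 (1.13) and a second sequence of mir-221 (1.47), and miR-9-5p had a fold of 0.556, none of them called. These 4 were named after their values were seen. The 5 most abundant sequences of the list also held miR-21-5p, a second sequence of mir-21 and the main sequence of mir-10b, with folds of 0.858, 0.869 and 0.985. Most reads of the list came from miR-21-5p (268854 spheroid and 108885 parental) and the main sequence of mir-10b (128203 and 45231).

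The 3 other sequences whose levels in the 2 tables were nearest to those of miR-200b-3p, by Euclidean distance in log2(rpm + 1), were miR-129-5p (166 spheroid and 25 parental reads, distance 0.33), miR-378i (134 and 38 reads, distance 0.34) and miR-671-3p (189 and 36 reads, distance 0.38). At these close levels miR-129-5p was called higher (fold 2.31, adjusted p 0.000231 by Kal's Z-test) and the other 2 were not.

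miR-200a-3p and miR-19a-3p were the endogenous controls of the qRT-PCR assays of the study, which is why their reads are set beside the members. miR-19a-3p had 192 reads in the spheroid table and 53 in the parental table, a fold of 1.26 (interval 0.925 to 1.74). Relative to miR-200a-3p, miR-205-5p had 5 reads per 4 in the spheroid table and 1 read per 5 in the parental table, a ratio 6.25 times as high in spheroid cells that rests on these few reads. Relative to miR-19a-3p the same ratio was 1.38 times as high. For miR-200b-3p the ratio was 6.13 times as high relative to miR-200a-3p and 1.35 times relative to miR-19a-3p. These ratios were computed after the counts were seen and carry no test. The study normalised its qRT-PCR values to the average of both references, not to either alone. It lists mir-200a itself as lower in spheroid cells, and whether this moved its qRT-PCR values was not tested.

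Some markers of endothelial, fibroblast and mural cells were called between the tables. Of 13 measured sequences of blood, endothelial, fibroblast, mural cell and liver miRNAs, 4 were called higher in the spheroid table and none lower, none of them a blood or liver sequence. The 4 were both endothelial sequences, which come from 1 stem-loop, and 2 of the 8 fibroblast and mural cell sequences. Among all 436 sequences, 4.82% were called higher and 8.94% lower. The 2 endothelial sequences summed to 264 rpm in the spheroid and 63.0 rpm in the parental table, and the 8 fibroblast and mural cell sequences to 361 rpm and 122 rpm. The blood list, at 22427 rpm and 17508 rpm, was nearly all miR-486, and no read was listed for miR-451 or miR-223. The liver marker miR-122 had 2 spheroid reads and 0 parental reads. Both cultures were of the same cell line, MDA-MB-231, so these reads do not show that such cells were present. In a bulk library, a larger share of cells with a miRNA and more of it per cell cannot be told apart, and the part of other cells in the reads of miR-200b-3p was not tested.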

How the data were processed

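Small RNA libraries (Illumina TruSeq) came from 3 spheroid and 3 parental samples. Using CLC Genomics Workbench 7.0, the authors cleaned the reads, kept tags of 17 to 27 nucleotides and annotated them with miRBase 19 and noncoding RNA from Ensembl release 57 (GRCh37). The deposited values are whole read counts per mature sequence, not normalised, in 1 table per condition and with 0 columns per sample. A test with replicates, the quasi-likelihood test of edgeR, could therefore not be used. Tables were joined on the mature sequence.

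Reads were scaled to 1000000 of the table total. Kal's Z-test and a fold over 2 follow the methods of the study, with Benjamini-Hochberg adjustment over all sequences with a read. Folds use a floor of 3 reads where a table had 0, and none is given where both tables were at or under 3. Members, lists and named miRNAs were chosen with earlier results of these data known. The sequences named were all members, the called and 5 most abundant of both lists, miR-19a-3p and the 3 nearest neighbours of the most abundant member. Named beyond this, after their values were seen, were miR-1468-5p, miR-375-3p, miR-183-3p, miR-222-3p, miR-9-5p and sequences of mir-155 and mir-221. Sequences were matched to RefSeq (6 of 6) and to GRCh37. The steps were tested on simulated counts. Alternatives were other scalings (TMM of edgeR 4.0.16, size factors of DESeq2 1.42.0, R 4.3.3), exact or unique reads, a minimum of 10 reads, other tests and sums over arms. Python 3.11.15, numpy 2.4.6, pandas 2.3.3, scipy 1.17.1 and matplotlib 3.10.9 were used.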

Additional observations from a re-analysis of the deposited data

How the results depend on the processing

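Under other settings the number of the 6 sequences called stayed at 0, except that with unadjusted p it was 1, miR-200a-3p (fold 0.278, lower). The fold of miR-200b-3p ran from 1.70 to 1.96 over 10 alternatives and was at its highest with size factors of DESeq2. Scaling to a single reference miRNA, a choice made after the data were seen, moved the fold out of this range. It was 6.13 against the 4 spheroid and 5 parental reads of miR-200a-3p, and 1.35 against the 192 and 53 reads of miR-19a-3p. Every log2 fold was 0.16 higher with TMM scaling and 0.20 higher with size factors. With coefficients of variation between cultures of 0.2 and 0.4 assumed in the edgeR exact test, the adjusted p of miR-200b-3p was 0.561 and 1.0. The summed fold of the 6 kept its direction, from 1.58 to 1.82. Exact reads (3 spheroid and 3 parental) gave no summed fold, and with at least 10 reads miR-200b-3p alone was left. Each stem-loop had 1 listed arm, so sums over arms changed no fold. The counts called among all sequences, 21 higher and 39 lower, became 28 and 30 with TMM scaling, 29 and 28 with size factors, 23 and 43 with unadjusted p, 13 and 8 with the assumed 0.2, and 0 and 0 with 0.4. No paired analysis was possible because the tables carry no column per sample, and for the same reason no replicate could be left out. Depth limits all members but miR-200b-3p. With 1 parental read, as for miR-429, miR-141-3p and miR-205-5p, folds below 7.99 could not be called. At the 5 parental reads of miR-200a-3p a higher call needed a fold of at least 2.99. At the 0 parental reads of miR-200c-3p it needed 18 spheroid reads.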
